A study of Arabidopsis thaliana with 3 samples.

Results

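The genes described here are 41 Arabidopsis thaliana loci that regulate growth in response to light, shade, gibberellin and brassinosteroid, of 27444 protein-coding genes on chromosomes 1 to 5. They were chosen by locus identifier from families known for these pathways. The rule itself uses no binding value, but the list was drawn up with earlier results of these data known. All 41 names are the RefSeq symbol of the locus or a synonym of it. They fall into 8 pathway groups, namely 7 PIF and PIL genes, HFR1 with PAR1 and PAR2, 5 HD-ZIP II genes, 5 genes of the HY5, HYH and BBX group, 3 BEE genes, 5 DELLA genes, 8 gibberellin oxidases and 5 brassinosteroid genes.

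The question was whether any of these genes lay under a binding site of AIPP3, a protein with a BAH domain, which is a module found in proteins that bind modified histones. Chromatin immunoprecipitation with sequencing (ChIP-seq) recovers the DNA that a protein sits on with an antibody, here one against the Myc tag. The AIPP3-4Myc group held 2 libraries, replicates 1 and 2, from transgenic seedlings that carried genomic AIPP3 with its own promoter and a Myc tag, placed in the corresponding mutant, for which the study's methods name the T-DNA insertion allele aipp3-1. The Col-0 group held 1 library from untagged wild-type seedlings and gives the background of the antibody. All seedlings were 13 days old and were grown at 23 °C on medium with 1% sucrose under 16 h of light and 8 h of dark, with no treatment named. The short codes of the AIPP3-4Myc libraries differ, and whether both came from 1 transgenic line is not stated. Whole seedlings mix many cell types, and peak positions carry no RNA levels with which the tissue could be checked.

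In the light, several PIF proteins are destroyed after phytochrome is activated, whereas in shade or darkness they accumulate. PIF proteins switch on elongation genes, among them genes of the HD-ZIP II family. HY5 acts in the opposite direction and promotes the seedling form of light-grown plants. DELLA proteins hold PIFs and the brassinosteroid factor BZR1 in check until gibberellin triggers their destruction. Gibberellin 20-oxidases and 3-oxidases make the active hormone and 2-oxidases inactivate it, so the oxidase genes set the hormone level.

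The deposited peak lists held 926 nuclear peaks in AIPP3-4Myc replicate 1, 430 in AIPP3-4Myc replicate 2 and 16 in Col-0. Each peak carries a MACS score, which is the negative log10 of its p-value times 10, so that a score of 50 stands for a p-value of 1e-05. The number of reads behind each list is unknown, so scores are read within a list only. No peak had the same start and end in both replicates. The target region of a gene spanned 1 kb before its transcription start site (TSS) and its body up to the transcription termination site (TTS), and a peak over 1 bp of it was enough to count the gene as bound. A gene that is not bound by this rule had no peak past the threshold of the authors, which does not show that AIPP3 was absent there.

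AIPP3-4Myc peaks lay on 3 of the 41 genes, each in a different family, and the other 38 carried none in either library. All 3 were bound in replicate 1, where 5.11% of protein-coding genes were bound. HAT1 (AT4G17460), an HD-ZIP II transcription factor gene that acts in shade and brassinosteroid responses, was bound in both AIPP3-4Myc libraries. RGL3 (AT5G17490), which encodes a DELLA repressor of gibberellin responses, and GA2OX6 (AT1G02400), which encodes a 2-oxidase that inactivates gibberellin, were bound in replicate 1 only. None of the 41 was bound in Col-0, whose list held 0 peaks on chromosome 4, the chromosome of HAT1.

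The shares bound were set beside those of all protein-coding genes. In AIPP3-4Myc replicate 1, 3 of the 41 genes were bound (7.32%), and 1403 of 27444 protein-coding genes were bound (5.11%). In AIPP3-4Myc replicate 2, 1 of the 41 was bound (2.44%), beside a background of 2.28%. In both libraries together, 1 of the 41 was bound (2.44%), beside a background of 1.67%. In Col-0, 0 of the 41 were bound, and 15 protein-coding genes were bound (0.0547%). At the background shares, 2.1 of 41 genes would be bound in replicate 1 and 0.686 in both, so the set as a whole held about 1 bound gene more than its size gives in replicate 1. Differences of this size in so few genes were not tested.

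**Figure D1:**
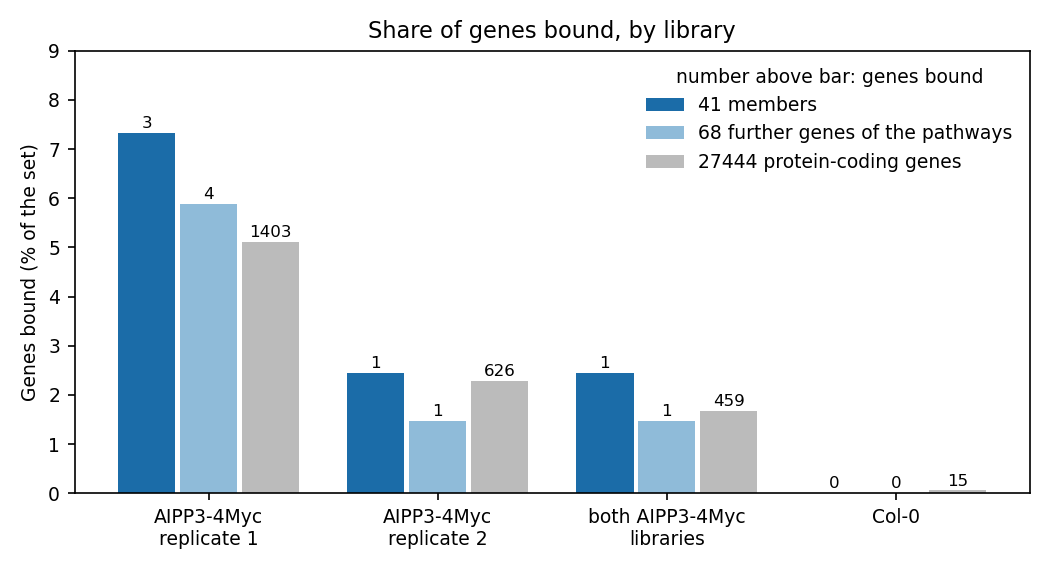
Share of genes bound (% of each set, from 0) in AIPP3-4Myc replicate 1, in AIPP3-4Myc replicate 2, in both and in Col-0, for the 41 growth regulators, 68 further genes of the same pathways and 27444 protein-coding genes, with the number bound above each bar. The shares of the 41 genes lie at 7.32% in replicate 1 and 2.44% in replicate 2, against 5.11% and 2.28% of protein-coding genes, and no growth regulator is bound in Col-0.

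The overlap between the AIPP3-4Myc libraries was set beside that of all genes. Of the 3 genes bound in replicate 1, 1 was bound in replicate 2 (33.3%), and HAT1, the only gene bound in replicate 2, was also bound in replicate 1. Among protein-coding genes, 459 were bound in both, which is 32.7% of those bound in replicate 1 and 73.3% of those bound in replicate 2. Replicate 1 has more than 2 times the peaks of replicate 2, and whether that comes from depth cannot be told from the lists.

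The 300 bases at the centre of the bound stretch are shown for the 3 genes because each peak spans nearly a whole gene and its middle is the best single position the lists give. They are read from the TAIR10.1 assembly on the strand of the gene, from chr4:9740200-9740499 (plus strand) for HAT1, chr5:5765001-5765300 (minus strand) for RGL3 and chr1:488558-488857 (plus strand) for GA2OX6. Capitals mark the G-box CACGTG and the related PBE-box CATGTG, sequences that PIF and HY5 proteins are known to bind, and the GAGA motif GAGAGA, each searched on both strands.
HAT1: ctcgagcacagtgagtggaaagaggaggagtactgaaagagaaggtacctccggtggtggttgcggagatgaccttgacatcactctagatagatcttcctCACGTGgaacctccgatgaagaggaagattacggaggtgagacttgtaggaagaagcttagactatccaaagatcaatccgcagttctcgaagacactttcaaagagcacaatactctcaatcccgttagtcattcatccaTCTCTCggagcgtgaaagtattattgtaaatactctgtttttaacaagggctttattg
RGL3: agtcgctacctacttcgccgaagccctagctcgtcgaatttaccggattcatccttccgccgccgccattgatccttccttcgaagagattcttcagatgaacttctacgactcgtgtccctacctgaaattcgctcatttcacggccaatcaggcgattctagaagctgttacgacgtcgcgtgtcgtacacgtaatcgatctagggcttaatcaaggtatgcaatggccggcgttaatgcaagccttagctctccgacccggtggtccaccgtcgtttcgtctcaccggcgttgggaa
GA2OX6: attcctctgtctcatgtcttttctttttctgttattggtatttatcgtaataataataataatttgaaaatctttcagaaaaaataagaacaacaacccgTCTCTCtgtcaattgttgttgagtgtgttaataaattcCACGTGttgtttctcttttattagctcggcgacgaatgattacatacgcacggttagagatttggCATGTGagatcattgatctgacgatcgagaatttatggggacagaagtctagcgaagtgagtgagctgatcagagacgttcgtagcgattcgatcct

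The HAT1 window held 226 coding bases and 74 intron bases, with 1 G-box inside the coding sequence and 1 GAGA motif in an intron. The GA2OX6 window joined 162 bases of the first intron to 138 coding bases and held 1 G-box and 1 GAGA motif in the intron and 1 PBE-box in the coding part. The RGL3 window was coding throughout, held none of the 3 motifs and had the highest GC content of the 3, at 53.0%, against 44.7% for HAT1 and 37.0% for GA2OX6. Among the centres of all 926 nuclear peaks of replicate 1, windows of the same length held a G-box in 11.7%, a PBE-box in 10.6% and a GAGA motif in 34.4%. A match of letters is a description and does not show a binding site.

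HAT1 lies on chromosome 4 at 9739518 to 9741234 on the plus strand. Its replicate 1 peak ran over 9739424 to 9741223 with a score of 219, and its replicate 2 peak ran over 9739553 to 9741146 with a score of 102. Within their lists these scores ranked 28 of 926 and 117 of 430. The replicate 1 peak covered 99.4% of the gene body and the replicate 2 peak 92.8%. The whole replicate 2 peak lay inside the replicate 1 peak and made up 88.6% of it. The peak midpoints fell 805 bp downstream of the TSS in replicate 1 and 831 bp in replicate 2, both in coding sequence and only 26 bp apart. Coding sequence made up 47.2% of the replicate 1 peak and 53.3% of the replicate 2 peak, and upstream sequence made up 5.22% of the replicate 1 peak and none of the replicate 2 peak. No other annotated gene had its target region under these peaks, so the assignment to HAT1 is not shared with a neighbour.

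The 4 other HD-ZIP II members carried no peak, which is the usual outcome for 4 genes at the background shares of 5.11% in replicate 1 and 2.28% in replicate 2. HAT2 encodes the protein most like HAT1, with 81.7% identical residues over the aligned part, and its nearest peaks were 52.4 kb away in replicate 1 and 43.1 kb away in replicate 2. ATHB2, the family member best known for its induction by shade, shares 62.1% of aligned residues with HAT1 and had its nearest peaks at 16.2 kb and 16.4 kb. ATHB4 had them at 8.58 kb and 16.3 kb, and HAT3 at 25.5 kb and 176.0 kb. Reads were placed by Bowtie2 at default settings, and whether reads that match several of these related genes were filtered afterwards is not stated. The part of such reads in the peaks was not tested.

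The coding G-box of HAT1 was compared with the aligned codons of its relatives, because it lies near the midpoints of both HAT1 peaks. The 33 bases are from TAIR10.1 on the coding strand of each gene, at chr4:9740288-9740320 (plus strand) for HAT1, chr5:19217153-19217185 (minus strand) for HAT2 and chr4:9449724-9449756 (plus strand) for ATHB2, with the aligned hexamer in capitals.
HAT1: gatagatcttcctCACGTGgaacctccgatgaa
HAT2: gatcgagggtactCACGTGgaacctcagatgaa
ATHB2: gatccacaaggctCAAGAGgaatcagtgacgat

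HAT2, which was not bound, held the same hexamer and differed from HAT1 at 6 of the 33 bases. ATHB2, HAT3 and ATHB4, also not bound, differed at 15, 20 and 23 of the aligned bases and did not hold the G-box there. At this position the hexamer was therefore present in HAT1 and in 1 of the 4 unbound HD-ZIP II members.

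RGL3 lies on chromosome 5 at 5763989 to 5766246 on the minus strand and has 1 uninterrupted coding block. Its replicate 1 peak ran over 5764012 to 5766289 with a score of 111, rank 181 of 926. It covered 99.0% of the gene body with its midpoint 1096 bp downstream of the TSS, and 69.0% of the peak was coding sequence. The nearest peak of replicate 2 was 188.0 kb away. The gene body of RGL3 had a GC content of 46.4%, the highest of the 41 genes, beside a median of 38.3% over the 41 and of 40.1% over the protein-coding genes bound in replicate 1.

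The 4 other DELLA genes had no peak in either AIPP3-4Myc library. Of all protein-coding genes, 5.11% were bound in replicate 1 and 2.28% in replicate 2. At these shares 4 genes without a peak are the usual outcome and do not by themselves set RGL3 apart. RGA and GAI, the DELLA genes with the broadest known roles in stem growth, had their nearest peaks at 33.0 kb in both replicates for RGA, and at 19.5 kb in replicate 1 and 238.0 kb in replicate 2 for GAI. RGL2, the DELLA gene known for restraining seed germination and the closest to RGL3 in protein sequence (74.0% identity), had its nearest peaks at 52.9 kb and 308.0 kb. RGL1 had them at 98.7 kb and 109.0 kb. These 4 genes also have 1 coding block each, and their gene bodies have GC contents of 41.6% to 44.8%, all below the 46.4% of RGL3. The part of base composition in the RGL3 peak was not tested.

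GA2OX6 lies on chromosome 1 at 486800 to 489651 on the plus strand. Its replicate 1 peak was the widest of the 4 peaks at these genes, running 4285 bp over 486565 to 490849 with a score of 126, rank 124 of 926. It covered the whole gene body and ran on for 1198 bp past the TTS. Its midpoint was 1907 bp downstream of the TSS, in the intron just before the second coding block. The nearest peak of replicate 2 was 67.4 kb away. The same peak covered all of AT1G02405, a proline-rich protein gene, and 990 bp upstream of the TSS of AT1G02410, so its assignment to GA2OX6 alone is uncertain.

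The 7 other oxidases were not bound, also the usual outcome for 7 genes where 5.11% of protein-coding genes were bound in replicate 1 and 2.28% in replicate 2. The 20-oxidase genes GA20OX1 and GA20OX2, which act in the late steps of synthesis, had their nearest replicate 1 peaks at 100234 bp and 80.9 kb. GA3OX1 and GA3OX2, whose enzymes make the bioactive form, had them at 45.9 kb and 27.2 kb. The 2-oxidases GA2OX1 and GA2OX2 came nearer. A replicate 1 peak with a score of 81.8 lay 2.62 kb beyond the upstream side of the GA2OX1 target region, over AT1G78450 and AT1G78460, which encode SOUL heme-binding family proteins. A replicate 2 peak with a score of 62.7 lay 3.01 kb beyond the downstream end of GA2OX2, over AT1G30050. Neither was matched within 5 kb in the other replicate, where the distances were 11.7 kb for GA2OX1 in replicate 2 and 30.6 kb for GA2OX2 in replicate 1. GA2OX8, which acts on longer-chain gibberellin precursors, was 84.9 kb and 144.0 kb from a peak.

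**Figure D2:**
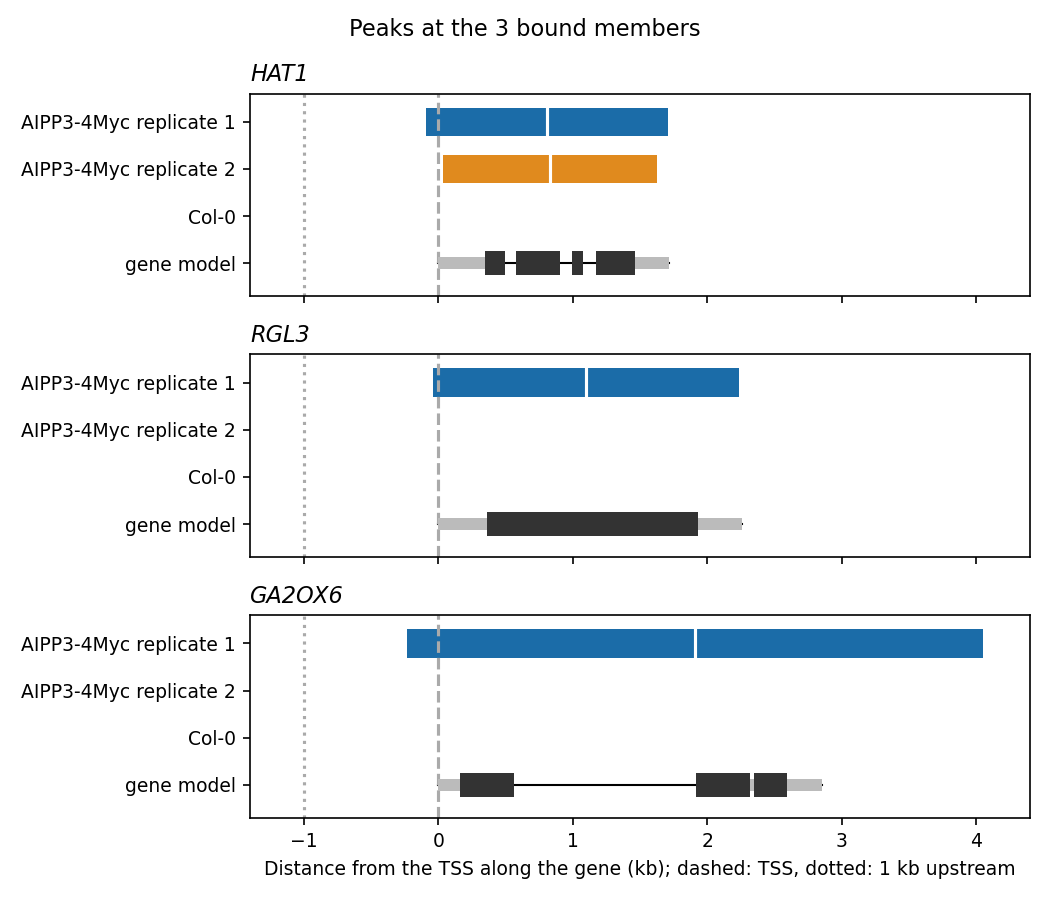
Peaks at HAT1, RGL3 and GA2OX6, drawn to scale as bars by distance from the TSS along the gene (kb), with 1 row per library, a white line at each peak midpoint, and the gene model below (black: coding, grey: UTR, line: intron). The HAT1 peaks of both AIPP3-4Myc replicates span the gene with midpoints at 805 and 831 bp, RGL3 and GA2OX6 have a peak in replicate 1 only, and the Col-0 rows are empty.

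All 4 peaks at these genes lay over the body of the gene and not mainly upstream of it. Body cover was lowest at HAT1 in replicate 2, at 92.8%, and complete at GA2OX6. Over all protein-coding genes bound in replicate 1, the median cover of the gene body was 68.0% and 35.8% of genes had at least 90% of the body covered, while 19.8% were called bound through the upstream part alone. In replicate 2 the median cover was 70.5% and 30.5% of genes had at least 90%. The median midpoint over bound genes was 583 bp downstream of the TSS in replicate 1 and 794 bp in replicate 2. In replicate 1 the midpoints at HAT1 (805 bp), RGL3 (1096 bp) and GA2OX6 (1907 bp) were all farther downstream than the median. The HAT1 midpoint in replicate 2 (831 bp) was near the median of that list. These medians include genes that only the edge of a peak touched.

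The 4 peaks stood in the upper part of their lists. In replicate 1, HAT1, GA2OX6 and RGL3 all had scores of at least 100, and 240 of the 926 nuclear peaks did. With peaks of at least this score alone, the 3 genes stayed bound in replicate 1 (7.32%), and the share of protein-coding genes bound was 1.31%, which gives 0.538 of 41 genes. Among the settings tried for replicate 1, this one set the 41 genes farthest from the background, and it rests on 3 genes and 1 library. In replicate 2 the HAT1 score also passed 100, as did the scores of 119 of the 430 nuclear peaks in all. With these peaks alone, 0.685% of protein-coding genes were bound in replicate 2. Of the 240 replicate 1 peaks with a score of at least 100, 156 overlapped a replicate 2 peak (65.0%), beside 157 of 686 peaks with a lower score (22.9%). RGL3 and GA2OX6 are thus among the 84 higher-scoring replicate 1 peaks without a counterpart in replicate 2.

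**Figure D3:**
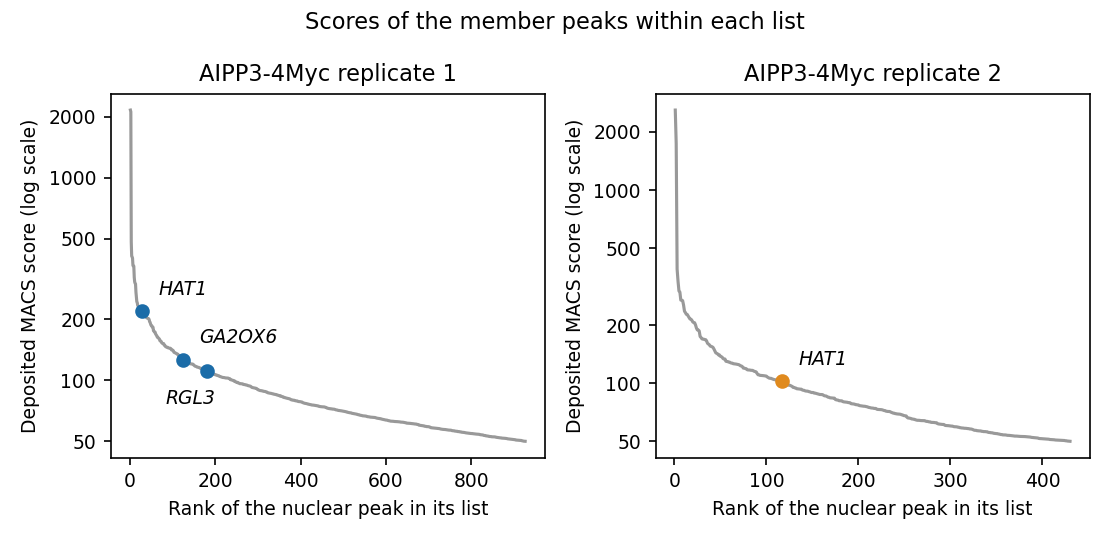
Deposited MACS score (log axis) against the rank of each nuclear peak, in AIPP3-4Myc replicate 1 (left) and AIPP3-4Myc replicate 2 (right), with the peaks at HAT1, GA2OX6 and RGL3 marked. In replicate 1 they rank 28, 124 and 181 of 926, and in replicate 2 HAT1 ranks 117 of 430. Levels are not comparable between the panels.

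The 7 PIF and PIL genes chosen here, which encode basic helix-loop-helix proteins at the centre of the shade response, carried no AIPP3-4Myc peak. No peak is the usual outcome for 7 genes, as 5.11% of protein-coding genes were bound in replicate 1 and 2.28% in replicate 2. Outside this group, the PIF gene UNE10 (PIF8), named after its values were seen, was bound in replicate 1 only. PIF4, which drives elongation in shade and warmth, was the closest of the 7, with a peak 13.3 kb away in each replicate. PIF3 followed at 16.4 kb in replicate 1 and 144.0 kb in replicate 2. PIF5 was at 29.4 kb and 101.0 kb, PIL1 at 32.7 kb and 51.8 kb, and PIL2 at 39.3 kb and 139.0 kb. PIF7, which has a leading part in the response to shade, was at 59.8 kb and 251.0 kb, and PIF1, a repressor of germination in the dark, was at 75.9 kb and 189.0 kb. The distances of this group overlapped those of protein-coding genes at large, whose medians were 39.4 kb in replicate 1 and 88.4 kb in replicate 2.

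HFR1, PAR1 and PAR2 encode atypical helix-loop-helix proteins that limit the shade response, and none was bound. The background shares were 5.11% in replicate 1 and 2.28% in replicate 2, so few groups of this size would hold a bound gene. A replicate 1 peak with a score of 50.05, rank 923 of 926, lay 3.04 kb beyond the upstream side of the HFR1 (AT1G02340) target region, over a chitinase family gene, AT1G02360. In replicate 2 the nearest peak to HFR1 was 88.1 kb away. PAR1 was 63.8 kb and 63.7 kb from a peak, and PAR2 was 35.9 kb and 171.0 kb from one. The HFR1 neighbour thus sat at the very bottom of its list and was not seen in the other.

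HY5 and HYH, the bZIP factors that promote light-grown development, had their nearest peaks at 41.4 kb and 68.8 kb in replicate 1, and at 67.0 kb and 68.9 kb in replicate 2. Of the B-box genes, STO was the farthest of all 41 genes from a replicate 1 peak, at 194.0 kb in each replicate. BBX21 and LZF1, which act with HY5, were 24.3 kb and 46.2 kb from a replicate 1 peak. The BEE genes, early targets of brassinosteroid, were also without a peak. BEE1 was at 26.2 kb in replicate 1 and 28.7 kb in replicate 2, BEE2 at 35.1 kb in each, and BEE3 at 97.6 kb and 17.2 kb. In these groups the nearest peak was never within 5 kb in either library. Of all protein-coding genes, 12.9% lay within 5 kb of a replicate 1 peak and 6.1% within 5 kb of a replicate 2 peak. The shares bound were 5.11% and 2.28%.

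The 5 brassinosteroid genes were not bound, beside 5.11% of protein-coding genes bound in replicate 1 and 2.28% in replicate 2. DWF4, CPD and BES1 lay closer to peaks than most of the 41 genes. DWF4 and CPD encode cytochrome P450 enzymes of hormone synthesis. DWF4 (AT3G50660) was 5.66 kb from a peak in replicate 1 and 5.6 kb from one in replicate 2, and both peaks lay beyond its downstream end over AT3G50650, a GRAS family gene. Their scores were 50.6 and 52.7, near the lowest in each list. CPD was 12.8 kb and 29.4 kb from a peak. BES1 and BZR1, the transcription factors that carry out the brassinosteroid response, were at 14.7 kb and 129.0 kb in replicate 1, and at 14.8 kb and 34.3 kb in replicate 2. BAS1, whose enzyme inactivates brassinosteroids, was at 95.2 kb and 95.3 kb.

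Over the 38 genes bound in neither library, the nearest AIPP3-4Myc peak lay at 2.62 kb to 194.0 kb in replicate 1, with a median of 35.5 kb, and at 3.01 kb to 308.0 kb in replicate 2, with a median of 66.5 kb. At 11 of the 38 the closest peaks of both lists overlapped each other, among them those of PIF4, ATHB2, RGA, DWF4 and BES1. No such count was made for other genes, so whether 11 is more than usual was not tested. The 11 are genes, and neighbouring genes can have the same closest peak. The count is therefore not on the scale of the 33.8% of replicate 1 peaks that overlapped a replicate 2 peak. Over all 41 genes the median distance was 33.0 kb in replicate 1 and 67.0 kb in replicate 2, and the medians of protein-coding genes were 39.4 kb and 88.4 kb. Within 5 kb of a replicate 1 peak were 12.2% of the 41 genes and 12.9% of protein-coding genes, and for replicate 2 these shares were 4.88% and 6.1%. The values of the growth regulators lay close to those of protein-coding genes, and the difference was not tested.

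**Figure D4:**
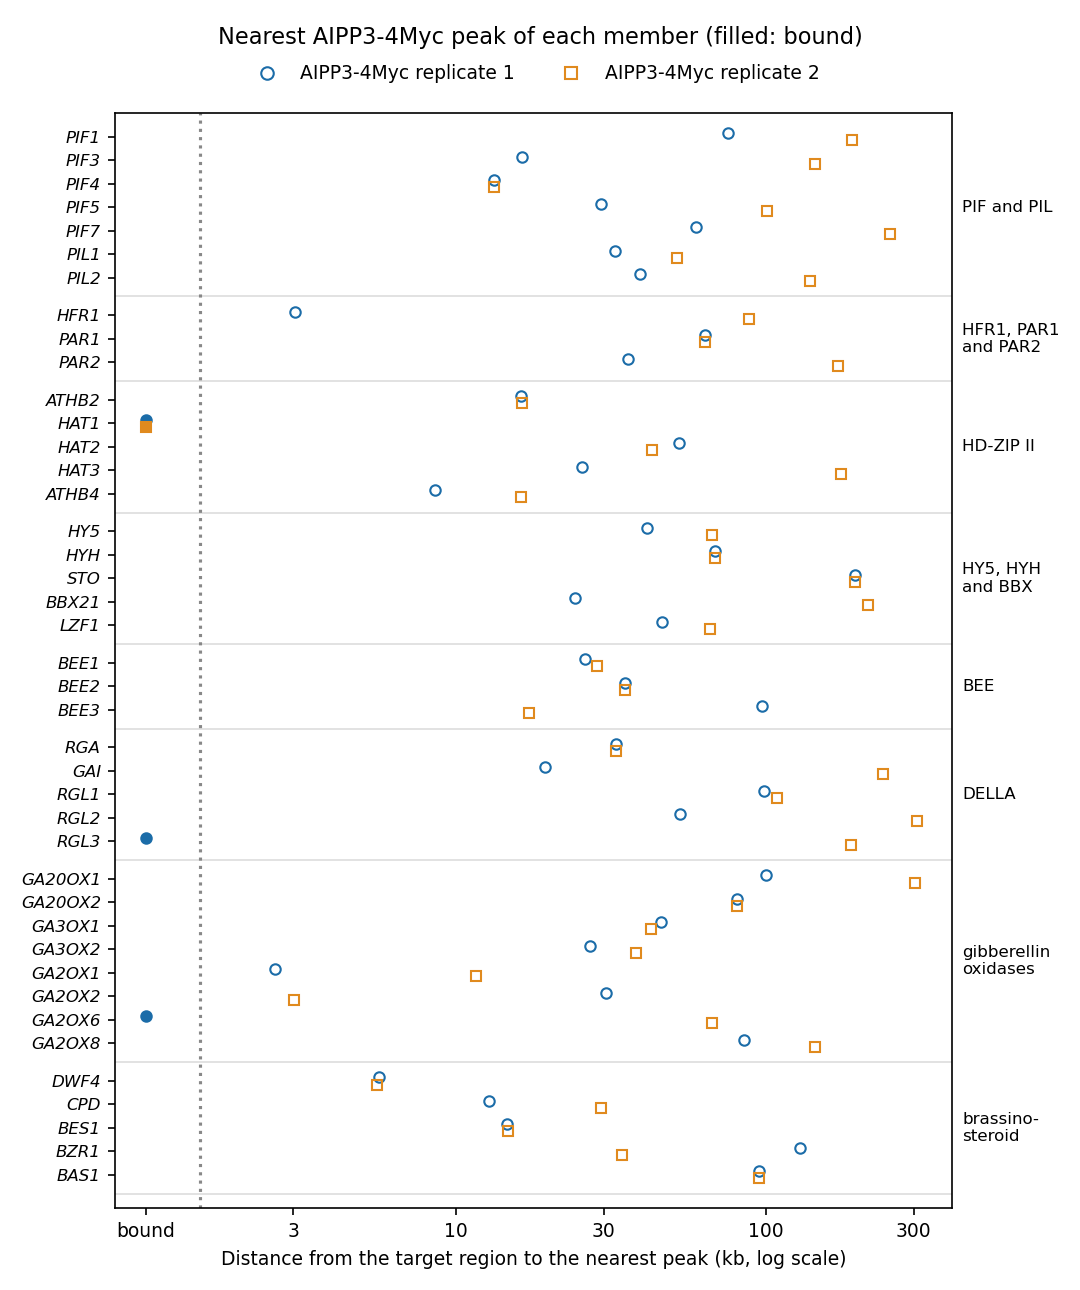
Distance between the target region of each of the 41 genes and the nearest peak of AIPP3-4Myc replicate 1 (circles) and AIPP3-4Myc replicate 2 (squares), in kb on a log axis, grouped by pathway, with bound genes filled and set apart at the left of the dotted line. Apart from HAT1, RGL3 and GA2OX6, every gene lies at least 2.62 kb from a peak, and the pathway groups overlap widely.

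The rest of each pathway was read from 68 further genes, from the photoreceptors to brassinosteroid signalling. Of these, 4 were bound in replicate 1 (5.88%), 1 in replicate 2 and in both (1.47%), and 0 in Col-0, beside shares of all protein-coding genes of 5.11% in replicate 1, 2.28% in replicate 2 and 1.67% in both. SPA4 (AT1G53090), which encodes a partner of the COP1 ubiquitin ligase that degrades HY5 in the dark, was bound in both libraries with scores of 72.5 in replicate 1 and 57.1 in replicate 2. At SPA4 the peak midpoints lay at -1363 bp and -1474 bp relative to the TSS, so that only the peak edges reached the target region, and no part of the gene body was covered, unlike at HAT1. The other 3, named here after their values were seen, were bound in replicate 1 only. PHOT1 (AT3G45780), a blue-light receptor kinase gene, had a peak with a score of 73.5 over 15.6% of its body. SLY2 (AT5G48170), which encodes an F-box protein related to the one that marks DELLA proteins for destruction, had one with a score of 86.2 over the whole of its body. UNE10 (AT4G00050), also known as PIF8, had one with a score of 72.3 over 49.9% of its body.

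No peak fell on the 5 other HD-ZIP II genes, the 5 other BBX genes, the 8 other gibberellin oxidases, the 5 genes of early gibberellin synthesis, the 7 further genes of brassinosteroid synthesis and turnover, the 9 of brassinosteroid signalling or the 7 of the PRE and IBH1 group. With the 41 genes, 7 of 109 were bound in replicate 1 (6.42%) and 2 of 109 in both (1.83%), which is close to the 5.11% and 1.67% of protein-coding genes. By the target region rule, HAT1 and SPA4 were therefore the only ones of the 109 genes with a peak in each AIPP3-4Myc library. SPA4 counts through its upstream part alone and would not count by the gene body alone.

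The families of the bound genes were then read over the whole annotation, by words in the RefSeq product, symbol or synonyms. The shares of all protein-coding genes to set beside them are 5.11% in replicate 1, 2.28% in replicate 2, 1.67% in both and 0.0547% in Col-0, and no family was tested against them. Of 36 GRAS genes, the family of the DELLA proteins, 10 were bound in replicate 1 (27.8%), 4 in replicate 2 (11.1%) and 3 in both (8.33%), against 0 in Col-0, so that each AIPP3-4Myc share was above that of all protein-coding genes. RGL3 was the only DELLA gene among them. The GRAS genes bound in both, likewise named after their values were seen, were AT3G50650, the neighbour of DWF4, with SCL13 (AT4G17230) and AT5G67411. Of 16 gibberellin oxidase genes, 1 was bound in replicate 1 (6.25%) and 0 in replicate 2. Of 33 B-box genes, 1 was bound in replicate 1 (3.03%), 4 in replicate 2 (12.1%) and 1 in both (3.03%), none of them among the 41. Of 22 genes annotated as homeobox-leucine zipper, 2 were bound in replicate 1 (9.09%) and 1, HAT1, in replicate 2 and in both (4.55%). Of 252 cytochrome P450 genes, 25 were bound in replicate 1 (9.92%), 13 in replicate 2 (5.16%), 10 in both (3.97%) and 1 in Col-0, none of them DWF4, CPD or BAS1. Of 73 bZIP genes, 4 were bound in replicate 1 (5.48%), 3 in replicate 2 (4.11%), 3 in both (4.11%) and 0 in Col-0, none of them HY5 or HYH. The words missed 1 of the 5 HD-ZIP II members and most of the PIF genes, and found only 1 of HY5 and HYH. The homeobox and bZIP counts are therefore incomplete, and no helix-loop-helix count is given.

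Since the light and hormone pathways meet at short promoter motifs, the 500 bp upstream of each TSS were searched on both strands. The G-box CACGTG was present in 4 of the 41 promoters (9.76%) and in 9.35% of 27443 protein-coding promoters. The PBE-box CATGTG was present in 14 (34.1%) and in 21.1% of all. CGTGTG, the core of the element bound by BZR1 and BES1, was present in 4 (9.76%) and in 9.22%. AATNATT, the core bound by HD-ZIP proteins, was present in 31 (75.6%) and in 49.5%. GAGAGA was present in 14 (34.1%) and in 35.2%, and AAACCCTA, the telobox, in 0 and in 7.51%. HAT1 had only the HD-ZIP core, RGL3 had the PBE-box and the HD-ZIP core, and GA2OX6 had only the HD-ZIP core, as had many of the 38 unbound genes. No motif searched was shared by the 3 bound genes and missing from the rest.

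Gene length and base composition of the 41 genes were close to those of other genes. Their median length was 2163 bp, beside 2078 bp over protein-coding genes, and their median GC content was 38.3%, beside 38.9%. GAGAGA occurred 2.31 times per kb of gene body in the median of the 41, beside 1.39 over protein-coding genes and 1.54 over those bound in replicate 1. Of the bound members, HAT1 had 3.49 per kb, GA2OX6 1.05 and RGL3 0.443, so the bound genes lay on both sides of the median of the set. PIF7, which carried no peak, had the highest value, at 7.03 per kb.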

How the data were processed

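Peak lists of 2 AIPP3-4Myc libraries and 1 Col-0 library were used. The authors aligned reads against TAIR10 using Bowtie2 (version 2.2.8) and called peaks in each library using MACS (version 1.4), both at default settings. The deposited score of a peak is its MACS score, a p-value on a negative log10 scale multiplied by 10. The control given to MACS, the handling of duplicate reads and the depth of each library are not given in the sources used here, and lists were not scaled to each other. A deeper library yields more peaks and higher scores.

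Gene models and sequence came from RefSeq TAIR10.1, whose nuclear chromosomes have TAIR10 coordinates. Coordinates are 1-based. Binding, distances, motifs and protein identities (BLOSUM62, translated from the longest RefSeq model) were computed in Python 3.11.15 with pandas 2.3.3 and Biopython 1.88, and the binding rule was tested on simulated peaks. The rule for named genes took every bound member with its peaks, every unbound member by name, peaks within 5 kb of one, and list genes bound in both replicates. The 41 genes and the lists were chosen with earlier results of these data known. With 2 libraries against 1, counts are descriptions and no test was made. Alternatives changed the score, the region, the overlap, the assignment, the removal of Col-0 overlaps and the libraries used. Organelle peaks, 7, 7 and 10 in the 3 lists in that order, were left out.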

Additional observations from a re-analysis of the deposited data

How the results depend on the processing

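The members bound were HAT1, RGL3 and GA2OX6 in AIPP3-4Myc replicate 1, HAT1 in replicate 2 and none in Col-0 under each of these alternatives: a score of at least 100, the gene body alone, 1 kb on each side of the TSS, 2 kb upstream, at least 200 bp under a peak, assignment to the nearest protein-coding TSS and, for the AIPP3-4Myc lists, removal of peaks that overlap a Col-0 peak. The count bound in both stayed at 1, also with replicate 1 reduced to its 430 highest-scoring nuclear peaks. Read from a single library it ranged between 1, without replicate 1, and 3, without replicate 2, where 1 DELLA gene and 1 gibberellin oxidase are added. The share of protein-coding genes bound in both was 0.496% with a score of at least 100 and 1.07% with assignment to the nearest TSS, and between 2.28% and 5.11% when read from 1 library. What sets RGL3 and GA2OX6 apart between the replicates was not tested. No paired analysis was possible because the groups share fewer than 2 replicate numbers: Col-0 has a single library, whose label gives no number. Peak lists without read counts cannot tell a weak signal from none, so the 38 unbound genes are those without a called peak.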
